A study of Rattus norvegicus with 30 samples.

Results

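Ndrg1 and 8 further genes that respond to low oxygen (Hif1a, Egln1, Egln3, Vegfa, P4ha1, Slc2a1, Ddit4 and Adm) were followed in cultured rat hepatocytes exposed to acetaminophen. These 9 genes were taken by symbol from the annotation of a rat expression array, and the set was chosen by the Ndrg1 signal, whose difference between 5000 µM acetaminophen and vehicle was not the same at both times. They were 9 of the 14217 genes that had a probe set of their own, and all 9 were among the 8531 brighter genes that were tested. Each gene was read from the brightest of its probe sets. The choice used the Ndrg1 values with 5000 µM acetaminophen and in vehicle wells over time, so those values are given as a description, without a test.

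Acetaminophen is an analgesic that the liver clears by conjugation and, in part, by oxidation to a reactive quinone imine. The cells were purchased, cryopreserved hepatocytes of male Sprague Dawley rats, plated on collagen under a Matrigel overlay and dosed on the third day of culture. The 6 groups were wells given 1% DMSO vehicle, 500 µM acetaminophen or 5000 µM acetaminophen, each for 24 h or for 48 h. Each group held 5 separately cultured wells with 1 array per well, 30 arrays in all, and the labels describe the dosing solutions of both acetaminophen doses as prepared in DMSO too. The labels name no donor animal for any well, so p-values measure the spread between culture wells and not between animals. Cryopreserved hepatocytes in a dish lack the oxygen zones and blood flow of the organ, and the sources used here do not state the oxygen level in the wells.

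The transcriptional response to low oxygen is run by the hypoxia-inducible factors, in which an oxygen-labile alpha subunit such as that encoded by Hif1a pairs with a stable beta subunit. In oxygenated cells the prolyl hydroxylases encoded by Egln1 and Egln3 mark the alpha subunit for destruction through the von Hippel-Lindau protein, and when oxygen falls the subunit accumulates and switches on genes for glucose uptake, vessel growth, collagen processing and growth restraint. Hif1a is controlled mainly at the protein level, so its transcript is not a readout of the activity of the factor. Several of these genes also answer to signals other than oxygen, among them Ddit4 to stress of the endoplasmic reticulum and DNA damage.

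The genes of the set did not share one response to acetaminophen. Ndrg1 had an average signal of 1496 ± 322.8 (SD, n = 5) after 48 h with 5000 µM, against 4829 ± 306.7 in vehicle, and none of the other 8 genes was called lower in that comparison. Adm and Ddit4 rose with 5000 µM at 24 h, and Ddit4 also rose with 500 µM at 24 h. At 48 h Hif1a and P4ha1 were called higher with 5000 µM by margins that depended on single arrays, while Adm fell with 500 µM and Vegfa was called higher on 1 of its 2 probe sets and lower on the other. Egln1, Egln3 and Slc2a1 were not called in any of the 9 comparisons in the fit over all arrays, although other settings called Egln1 and Slc2a1 in some of them. Wells of one group differed from each other in a shared way, in part along the running numbers of the sample titles. Ndrg1, Slc2a1, Egln3, Egln1 and Vegfa were high together or low together, with Vegfa read from its brighter probe set only.

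Values are MAS5 signals, a linear measure of probe set brightness in arbitrary units, and log2 changes carry moderated standard errors. The test was limma's, two-sided, with n = 5 arrays in every group, and a gene counts as called where its Benjamini-Hochberg adjusted p, taken over the 8531 genes, was under 0.05. For the second probe set of a gene the adjusted p was taken over all probe sets other than controls. With 5000 µM at 24 h, 2 of the 8 genes other than Ndrg1 were called, both higher, where 38.1% of all tested genes were called. With 5000 µM at 48 h, 2 of 8 were called, both higher, against 32.6% of all tested genes. These 2 counts stand beside a contrast that helped choose the set, and nothing is read from them. With 500 µM, 1 of 8 was called at 24 h, higher, against 2.86% of all tested genes, and 2 of 8 at 48 h, 1 higher and 1 lower, against 42.6%. For 5000 against 500 µM, 1 of 8 was called higher at 24 h, where the share of all tested genes was 31.2%, and 1 of 8 was called higher at 48 h, where it was 47.6%. In vehicle wells at 48 against 24 h, 3 of 8 were called, 2 higher and 1 lower, beside 32.5% of all tested genes. The arrays of the groups did not overlap for 2 of 8 genes with 5000 µM at 24 h (24.1% of all tested genes), for 0 of 8 with 5000 µM at 48 h (25.4%), for 1 of 8 with 500 µM at 24 h (4.75%), for 2 of 8 with 500 µM at 48 h (27.4%), for 1 of 8 between 5000 and 500 µM at 24 h (19.4%) and at 48 h (32.9%), and for 2 of 8 in vehicle over time (22.8%). The median change of the 8 genes was 0.12 with 5000 µM at 24 h, 0.16 with 5000 µM at 48 h, -0.01 with 500 µM at 24 h and 0.11 with 500 µM at 48 h, while the medians of all tested genes lay between -0.02 and 0.01 in these comparisons.

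**Figure D1:**
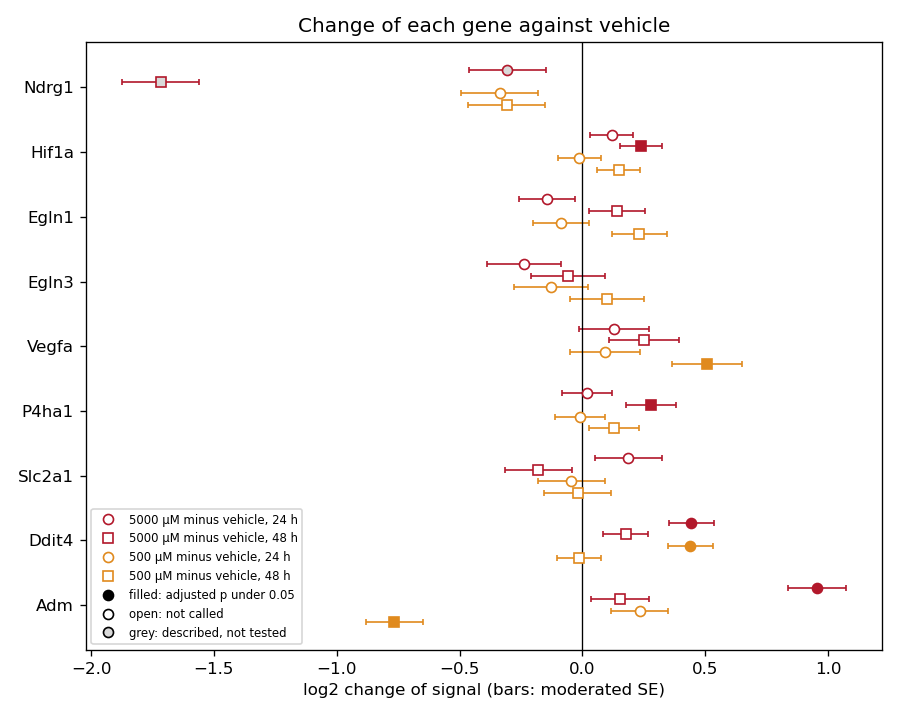
Log2 change of each of the 9 genes against vehicle (x axis), with moderated standard errors, for 5000 µM (red) and 500 µM (orange) at 24 h (circles) and 48 h (squares). Filled symbols were called, open ones were not, and grey ones are Ndrg1 values given without a test. Ndrg1 with 5000 µM at 48 h lies far to the left at -1.72, and Adm lies at 0.96 with 5000 µM at 24 h and at -0.77 with 500 µM at 48 h.

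All arrays shared nearly the same trimmed mean, and the 7 hepatocyte markers found on the array were all well expressed in every group, with summed signals of 301000 to 417800. Of the markers of other liver cells, 3 of 7 for Kupffer cells and leukocytes, 2 of 8 for stellate cells and fibroblasts, 1 of 7 for sinusoidal endothelium and 1 of 6 for cholangiocytes reached the brightness that was tested, and the macrophage markers Cd163 (average 67.5) and Clec4f (270.2) and the cholangiocyte marker Krt19 (148.4) did not. The summed Kupffer and leukocyte signal, most of it Cd14, was 19640 to 22540 with 5000 µM at 24 h, against 22730 to 30400 in vehicle, and 20840 to 22930 with 5000 µM at 48 h, against 24370 to 28430 in vehicle. The summed cholangiocyte signal, most of it Epcam, was 13490 to 14650 in vehicle, 11200 to 11920 with 500 µM and 12220 to 13380 with 5000 µM at 48 h, and 9608 to 9941 in vehicle at 24 h. The β-actin control has probe sets at the 3′ and at the 5′ end of its transcript, and the ratio between them, a measure of RNA and labelling quality, also differed between groups, and its values stand beside the genes they touch. The part of these shifts in the results on the 9 genes was not tested, apart from the fit with the ratio as a covariate, and in such bulk samples fewer cells of a type and less RNA per cell cannot be told apart.

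To show what the regulated genes carry next to their start sites, RefSeq promoter windows (build GRCr8, 250 bases before to 50 bases after the start) were searched on both strands for the cores of the hypoxia response element, ACGTG and GCGTG. Windows were found for 8 of the 9 genes, and for Ndrg1 none was in the table used. One or both cores occurred in the windows of Hif1a, Egln1, P4ha1, Slc2a1 and Ddit4, 5 of 8 genes, and in 41.6% of all 33469 windows. The longer form ACGTGC, which contains the first core, occurred in 4 of the 8 genes and in 5.73% of all windows, and TACGTGC, which contains both shorter forms, in Egln1 and P4ha1 and in 0.86% of all windows. The windows of Adm, Egln3 and Vegfa held neither core, which says only that these letters are not in these 300 bases. Of the 4 windows printed, those of Ddit4 and Adm belong to the 2 genes that rose with 5000 µM at 24 h, and those of Slc2a1 and Egln3 to the 2 genes that followed Ndrg1 most closely between wells. Capitals mark the cores as they read on the printed strand, so that CACGC is the reverse complement of GCGTG. The Ddit4 window lies at chr20:28436988-28437287 on the minus strand, the Adm window at chr1:174179950-174180249 on the plus strand, the Slc2a1 window at chr5:138002272-138002571 on the plus strand, and the Egln3 window at chr6:77410966-77411265 on the minus strand.
Ddit4: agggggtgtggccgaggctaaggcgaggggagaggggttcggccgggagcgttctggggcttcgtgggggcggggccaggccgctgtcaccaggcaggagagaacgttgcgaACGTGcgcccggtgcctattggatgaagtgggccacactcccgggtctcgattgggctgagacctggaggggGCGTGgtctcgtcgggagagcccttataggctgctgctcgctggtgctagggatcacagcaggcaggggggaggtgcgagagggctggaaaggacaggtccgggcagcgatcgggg
Adm: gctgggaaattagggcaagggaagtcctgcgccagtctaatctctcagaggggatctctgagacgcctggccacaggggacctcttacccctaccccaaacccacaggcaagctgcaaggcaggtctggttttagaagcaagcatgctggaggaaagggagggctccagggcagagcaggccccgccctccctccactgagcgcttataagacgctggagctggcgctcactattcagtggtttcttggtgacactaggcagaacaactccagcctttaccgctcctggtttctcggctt
Slc2a1: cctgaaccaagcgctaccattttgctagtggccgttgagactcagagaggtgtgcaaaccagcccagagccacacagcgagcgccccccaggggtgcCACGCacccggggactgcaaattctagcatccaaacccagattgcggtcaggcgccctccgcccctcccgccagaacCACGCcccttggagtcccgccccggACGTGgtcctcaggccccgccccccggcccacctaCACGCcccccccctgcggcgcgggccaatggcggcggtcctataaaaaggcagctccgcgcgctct
Egln3: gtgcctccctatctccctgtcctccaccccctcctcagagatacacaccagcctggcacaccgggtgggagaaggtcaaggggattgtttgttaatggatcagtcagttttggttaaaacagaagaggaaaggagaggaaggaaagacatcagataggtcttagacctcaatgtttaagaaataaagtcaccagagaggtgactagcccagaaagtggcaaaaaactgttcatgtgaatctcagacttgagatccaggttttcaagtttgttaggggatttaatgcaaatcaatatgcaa
In Ddit4 an ACGTG began 138 bases before the start and a GCGTG 66 bases before it. In Slc2a1 the single ACGTG began 51 bases before the start, with 3 GCGTG cores on the other strand at 16, 76 and 153 bases before it. A match is a string of letters and not a measured binding site.

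Ndrg1 (chr7:100573526-100614902 in GRCr8, probe set 1371360_at) encodes a cytoplasmic growth-restraining protein whose transcript accumulates under low oxygen. At 24 h its signal was 5429.6, 3185, 4447, 3748 and 3939.6 in vehicle, 3941, 3504, 3361, 2425 and 3140.4 with 500 µM, and 3590.1, 4419, 3383, 2246 and 3271 with 5000 µM. At 48 h it was 5046, 4356, 4685, 5077 and 4982 in vehicle, 4657, 4134, 4471, 3132 and 3318 with 500 µM, and 1898, 1687, 1446, 1408 and 1039 with 5000 µM. The 5 arrays with 5000 µM at 48 h were the 5 lowest of all 30, while the groups at 24 h overlapped.

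The group means of Ndrg1 fell into the following order, highest first: 4829 ± 306.7 in vehicle at 48 h, 4149.8 ± 845.9 in vehicle at 24 h, 3942 ± 684.6 with 500 µM at 48 h, 3382 ± 778.1 with 5000 µM at 24 h, 3274 ± 557.9 with 500 µM at 24 h and 1496 ± 322.8 with 5000 µM at 48 h. Among the first 5 groups each neighbour in this order overlapped the next, and the last group lay apart from all others. On the log2 scale Ndrg1 with 5000 µM differed from vehicle by -0.31 at 24 h and by -1.72 at 48 h, a signal ratio of 0.304. The difference between these effects was -1.41, the third lowest of the 8531 genes, and the value at 48 h ranked 13 from the lowest. These numbers describe the pattern for which Ndrg1 was chosen. With the β-actin ratio as a covariate the difference from vehicle was -0.10 at 24 h and -1.70 at 48 h. Against 500 µM, the wells with 5000 µM differed by 0.03 at 24 h and by -1.41 at 48 h.

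**Figure D2:**
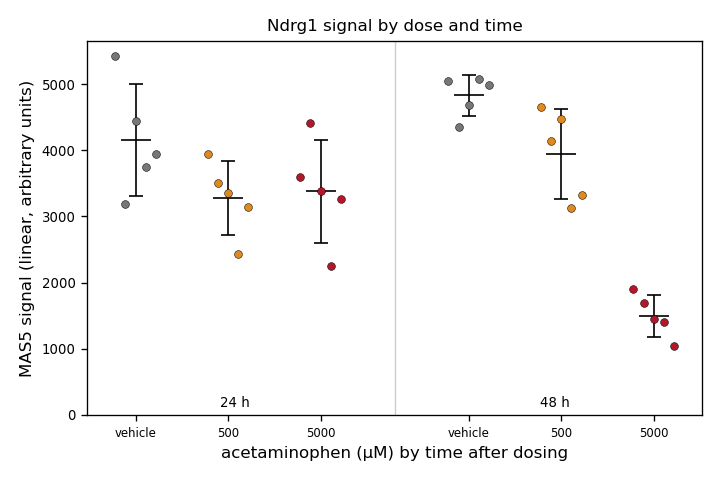
MAS5 signal of Ndrg1 (y axis, linear, arbitrary units) in vehicle, 500 µM and 5000 µM wells at 24 and 48 h, with 1 point per array and the mean and SD of 5 arrays. The 5000 µM arrays at 48 h lie between 1039 and 1898, below every other array.

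The 500 µM wells played no part in the choice, but the vehicle wells that they are set against did, so the p-values for Ndrg1 with 500 µM are not independent of it. Its change was -0.34 ± 0.16 at 24 h (95% interval -0.66 to -0.02, limma adjusted p = 0.243) and -0.31 ± 0.16 at 48 h (95% interval -0.63 to 0.01, limma adjusted p = 0.114). Ndrg1 was not called at either time with 500 µM in the fit over all arrays, and the 2 effects differed by 0.03 ± 0.22 (limma adjusted p = 0.933). At 24 h none of the 9 other settings called it, with changes from -0.34 to 0.36, the latter on the second probe set. At 48 h only 5 of 9 other settings left it uncalled, and the rest, among them the second probe set, called Ndrg1 lower. Over these 9 settings the change at 48 h ran from -2.22 to -0.22.

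A further Ndrg1 probe set, 1391458_at, had an average signal of 162.5, below that of the dimmest gene tested (469.2), and did not follow the first. At 48 h it read 223.4, 379.8, 632.5, 306.2 and 630.9 in vehicle, 67.2, 112.2, 52.8, 103.5 and 114.4 with 500 µM, and 115.8, 211.3, 110.8, 64.5 and 110.9 with 5000 µM. Every array of both doses lay below every vehicle array at 48 h, with a log2 change of -2.22 ± 0.43 for 500 µM (limma adjusted p = 4.92e-04, against the same vehicle wells) and a difference of -1.81, as a description, for 5000 µM. At 24 h it read 104.4, 115.0, 132.0, 111.2 and 201.1 in vehicle, about the level of the 5000 µM wells at 48 h. Its vehicle wells at 48 h thus stood 1.64 log2 units above those at 24 h, where the first probe set differed by 0.24. For 5000 against 500 µM at 48 h it differed by 0.41, where the first probe set differed by -1.41, and for 5000 µM against vehicle at 24 h by 0.78, where the first differed by -0.31. The 2 probe sets thus had a like difference for 5000 µM against vehicle at 48 h but not in these other comparisons.

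Among all tested genes outside the set, those whose 6 group means ran closest to Ndrg1 were LOC102552343, Isg20, which encodes an RNA exonuclease, Ampd3, an AMP deaminase, Prkar1b, a regulatory subunit of protein kinase A, and Dnlz, a chaperone partner of mitochondrial Hsp70. Their root mean square differences from Ndrg1, with each gene centred on its own mean, were 0.19 to 0.21 log2 units over the 6 groups. By the same measure the 8 other genes of the set ranked from 3333 (Slc2a1) to 8435 (Adm) of 8530. Ampd3, for example, differed from vehicle by -0.28 at 24 h and by -1.26 at 48 h with 5000 µM. These genes were picked for their likeness, and no test was made of it.

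Of Hif1a and the hydroxylase genes Egln1 and Egln3, only Hif1a was called in the fit over all arrays, in 1 of the 9 comparisons. Hif1a (chr6:98357788-98405068), the alpha subunit, had signals of 9725, 9316, 8544, 10139 and 9555 with 5000 µM at 48 h, against 7994, 6580.5, 7891, 8042 and 9810.3 in vehicle. The 2 groups overlapped only through the single vehicle array at 9810.3, and the rise was 0.24 ± 0.09 (limma adjusted p = 0.0330). Without vehicle replicate 2, the lowest array, the change was 0.17 and its adjusted p in limma 0.142, and 7 of the 10 fits that left out 1 array lost the call. With arrays centred on their medians the adjusted p was 0.136. At 24 h Hif1a differed from vehicle by 0.12 ± 0.09 with 5000 µM (limma adjusted p = 0.296) and by -0.01 ± 0.09 with 500 µM (limma adjusted p = 0.960). Its mean log2 signal at 24 and 48 h was 13.30 and 13.20 with 5000 µM, and 13.18 and 12.97 in vehicle. The vehicle change over time was -0.22 ± 0.09 (limma adjusted p = 0.0517). It was not called in 6 of 8 other settings and 8 of 10 fits without 1 array, and was called lower in the rest.

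Egln1 (chr19:69765276-69804681), the prolyl hydroxylase that sets Hif1a protein turnover in most cells, had signals of 4905, 4384, 3813, 3382 and 4068 with 5000 µM at 24 h, against 5034, 4471, 4499, 4229.9 and 4355 in vehicle. At 48 h its values were 4336, 4688, 4281, 4594 and 3306 in vehicle, where replicate 5 lay well below the other 4, 5261, 5704, 5071, 4894 and 3968 with 500 µM and 5320.1, 5003, 4959.7, 4239.7 and 3841 with 5000 µM. All of these groups overlapped, and the changes ran from -0.15 with 5000 µM at 24 h to 0.23 with 500 µM at 48 h (limma adjusted p = 0.336 and 0.0995). With 500 µM at 48 h Egln1 was called higher with arrays centred on their medians (0.32, limma adjusted p = 0.0294) and with runs of 6 consecutive title numbers as a block (0.23, limma adjusted p = 0.0192), as in 1 of the 10 fits without 1 array, while with the β-actin ratio as a covariate the change was -0.13. The block also called its difference between times with 500 µM (0.32, limma adjusted p = 0.0247). A second Egln1 probe set was almost dark, at an average of 54.7, and was not called.

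Egln3 (chr6:77385549-77411015), the hydroxylase whose own transcript is strongly oxygen-responsive, read 12758, 12798, 8096, 7827 and 10673 with 5000 µM at 24 h, against 14736, 10762, 12161, 11883 and 10938 in vehicle. At 48 h it read 14019, 12643, 11360.1, 11815 and 9219 with 5000 µM, against 13528, 11394, 13579, 13173 and 9777 in vehicle. The changes were -0.24 ± 0.15 at 24 h and -0.06 ± 0.15 at 48 h (limma adjusted p = 0.226 and 0.813). Its wells were uneven within a group, with a coefficient of variation of 23.1% for 5000 µM at 24 h and 13.2% for vehicle at 24 h. With 500 µM the changes were -0.13 ± 0.15 and 0.10 ± 0.15 (limma adjusted p = 0.700 and 0.607).

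**Figure D3:**
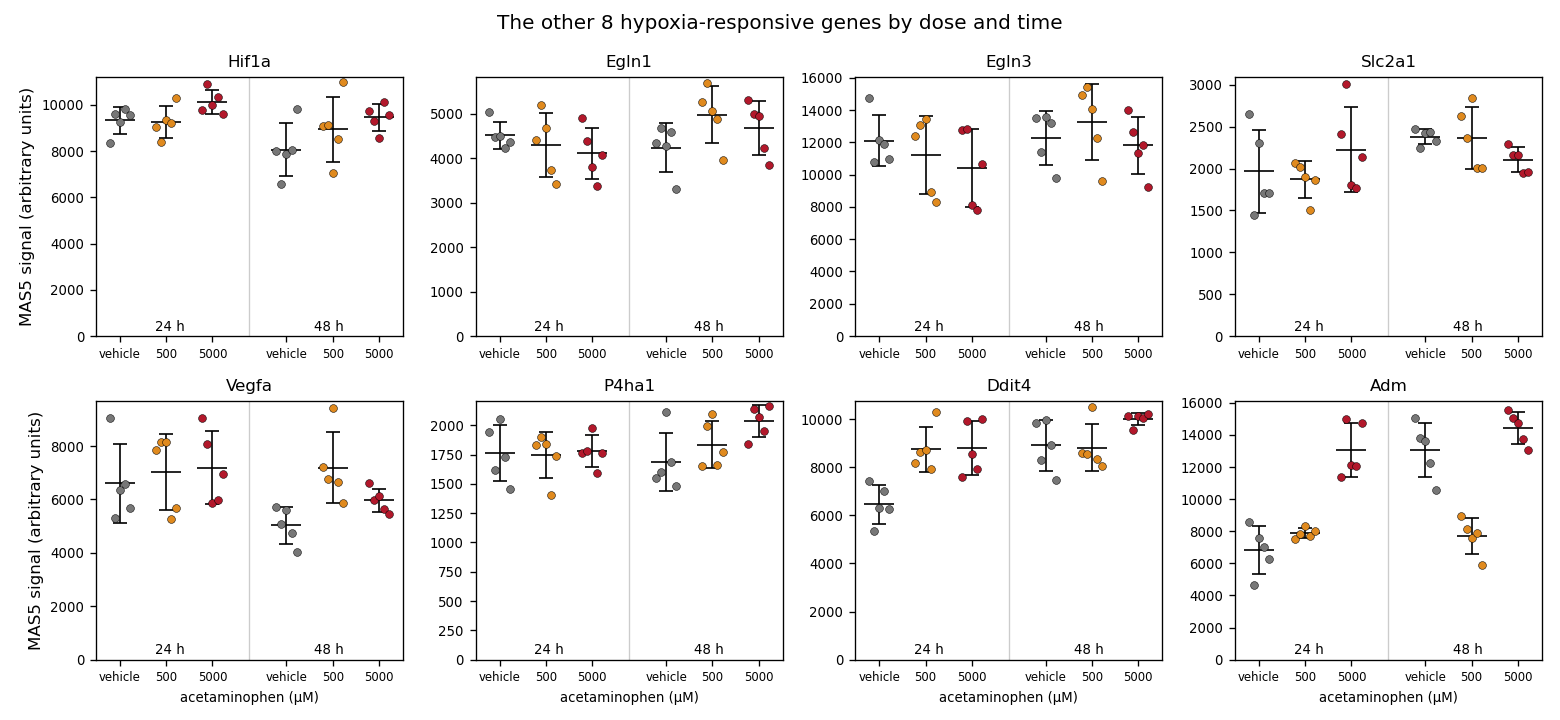
MAS5 signals (y axes, linear, from 0) of the 8 genes other than Ndrg1 in vehicle, 500 µM and 5000 µM wells at 24 and 48 h, with 1 point per array and the mean and SD of 5 arrays. Adm and Ddit4 at 24 h lie higher with 5000 µM than in vehicle without overlap, and the groups of Egln1, Egln3 and Slc2a1 overlap in every pair of groups compared.

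Slc2a1 (chr5:138002522-138030742), the glucose transporter GLUT1, had signals of 2419, 3014, 1809, 1762 and 2136 with 5000 µM at 24 h, against 2657, 1447, 2306, 1713 and 1707 in vehicle. At 48 h the values were 2295, 2164, 2157, 1945 and 1962 with 5000 µM, against 2475, 2248, 2422, 2439.9 and 2324 in vehicle. The 48 h vehicle arrays were tightly grouped and only 1 of the 5 arrays with 5000 µM reached them, yet the change of -0.18 ± 0.14 was not called in the fit over all groups (limma adjusted p = 0.343). It was called lower in a fit restricted to these 2 groups (limma adjusted p = 0.0446). Its changes in the other comparisons with vehicle lay between -0.04 and 0.19. In vehicle wells at 48 against 24 h it differed by 0.31 ± 0.14 (limma adjusted p = 0.0788), and it was called higher there with quantile normalization (0.35, limma adjusted p = 0.0464), with the β-actin ratio as a covariate (0.56, limma adjusted p = 0.0447), with the runs of title numbers as a block (0.31, limma adjusted p = 0.0424) and in 2 of the 10 fits without 1 array.

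P4ha1 (chr20:27784696-27895785), the catalytic subunit of the collagen prolyl hydroxylase, had signals of 1841, 2141, 2069, 1947 and 2166 with 5000 µM at 48 h, against 1552, 1597, 2109, 1684 and 1481 in vehicle. Of the 5 vehicle arrays, 4 lay below all arrays with 5000 µM and the fifth lay among them. The rise was 0.28 ± 0.10 (limma adjusted p = 0.0318), and 6 of the 10 fits that left out 1 array lost the call, with a change of 0.24 and an adjusted p of 0.0954 in limma without vehicle replicate 5. With arrays centred on their medians the adjusted p was 0.0874. No fit without 1 array kept the calls of both Hif1a and P4ha1.

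Vegfa (chr9:22452854-22468194), the main signal for vessel growth, had 2 probe sets of useful brightness that disagreed. On the brighter one, 1373807_at, signals at 48 h were 7222, 6778, 9423, 6671 and 5874 with 500 µM, against 5723, 5096, 5620.2, 4738 and 4017 in vehicle, without overlap, a change of 0.51 ± 0.14 (limma adjusted p = 0.00515). On the other, 1370081_a_at, they were 1523, 1563, 1318, 1614 and 1812 with 500 µM, against 2495, 1890.4, 2073, 2378 and 1887 in vehicle, again without overlap but in the opposite direction, a change of -0.45 ± 0.12 (limma adjusted p = 0.00587). The log2 3′/5′ ratio of the β-actin control was 1.86 ± 0.12 with 500 µM and 1.24 ± 0.11 in vehicle at 48 h (SD, n = 5, exact permutation p = 0.00794, two-sided, the smallest these arrays can give, adjusted p = 0.0198 over 5 comparisons). With that ratio as a covariate, the change on the brighter probe set was -0.01. No direction is therefore given for Vegfa with 500 µM at 48 h.

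In the other comparisons with vehicle the 2 Vegfa probe sets had the same sign at 24 h. With 5000 µM at 24 h the brighter probe set differed from vehicle by 0.13 ± 0.14 (limma adjusted p = 0.518) and the other rose by 0.62 ± 0.12 (limma adjusted p = 1.91e-04). With the ratio as a covariate the brighter probe set too was called higher, by 0.47 (limma adjusted p = 0.00603). With 500 µM at 24 h neither was called, at 0.09 and 0.37. With 5000 µM at 48 h neither was called, at 0.25 ± 0.14 and -0.03 ± 0.12 (limma adjusted p = 0.187 and 0.946). In vehicle wells at 48 against 24 h the brighter one was called lower, with a change of -0.38 ± 0.14 (limma adjusted p = 0.0422), and the other higher, by 0.44 ± 0.12 (limma adjusted p = 0.00983). Without vehicle replicate 1 at 24 h the first of these was -0.25 with an adjusted p of 0.175 in limma, and 6 of 10 such fits lost its call.

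Ddit4 (chr20:28434938-28437037) encodes REDD1, an inhibitor of mTORC1 that is induced by low oxygen and other stresses. At 24 h its signals were 7441, 5330.1, 6298, 7025 and 6246 in vehicle, 8158, 8643, 8717, 7924 and 10297 with 500 µM and 7579.8, 9922, 8531, 7928 and 9997 with 5000 µM. All 10 treated arrays lay above all 5 vehicle arrays, and the doses overlapped each other. The rise was 0.44 ± 0.09 with 5000 µM (limma adjusted p = 2.39e-04) and 0.44 ± 0.09 with 500 µM (limma adjusted p = 0.00503), and the doses differed by 0.00 ± 0.09 (95% interval -0.18 to 0.19). Every fit run, those without 1 array included, kept both calls. The log2 β-actin ratio at 24 h was 1.78 ± 0.24 in vehicle, 1.61 ± 0.33 with 500 µM and 1.37 ± 0.22 with 5000 µM (SD, n = 5 each, exact permutation adjusted p = 0.516 for 500 µM and 0.0794 for 5000 µM against vehicle). With it as a covariate the Ddit4 rises were 0.40 with 5000 µM and 0.42 with 500 µM.

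At 48 h the vehicle wells themselves had more Ddit4 signal. It read 9847, 8317, 9968, 8933 and 7465 in vehicle at 48 h, which put every 48 h vehicle array above every 24 h vehicle array, a rise of 0.46 ± 0.09 (limma adjusted p = 3.36e-04). With 500 µM at 48 h it read 8594, 8541, 10499, 8361 and 8052, a change of -0.01 ± 0.09 against vehicle (limma adjusted p = 0.920). With 5000 µM it read 10121, 9555, 10126, 10033 and 10191, a change of 0.18 ± 0.09 (limma adjusted p = 0.149), and both dose groups overlapped vehicle. The effect of 500 µM at 48 h minus that at 24 h was -0.45 ± 0.13 (limma adjusted p = 0.00727), a call lost with arrays centred on their medians (-0.37, adjusted p = 0.0608) and with the ratio as a covariate (-0.38, adjusted p = 0.281). For 5000 µM the difference between times was -0.27 ± 0.13 (limma adjusted p = 0.161).

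Adm (chr1:174164178-174182372) encodes adrenomedullin, a secreted vasodilator peptide and a classical low-oxygen target. At 24 h its signals were 8557, 4657, 7608, 7049 and 6275 in vehicle, 7494, 7825, 8308, 7682 and 8041 with 500 µM and 11388, 14975, 12109.6, 12062 and 14753 with 5000 µM. Every array with 5000 µM lay above every array of the other 2 groups, and 500 µM overlapped vehicle. With 5000 µM Adm rose by 0.96 ± 0.12 against vehicle, 1.94-fold (limma adjusted p = 8.18e-08), and by 0.72 ± 0.12 against 500 µM (limma adjusted p = 1.25e-05). The change with 500 µM was 0.23 ± 0.12 (limma adjusted p = 0.282).

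At 48 h the pattern of Adm was different. It read 15041, 13828, 13647, 12235 and 10571 in vehicle, 8969.9, 8164, 7556, 7911 and 5912 with 500 µM and 15580, 15078, 14737, 13744 and 13094 with 5000 µM. The 500 µM arrays lay below all arrays of the other 2 groups, which overlapped. Adm fell by 0.77 on the log2 scale with 500 µM (SE 0.12, limma adjusted p = 1.01e-05), while 5000 µM differed from vehicle by 0.15 ± 0.12 (limma adjusted p = 0.349) and lay above 500 µM by 0.92 ± 0.12 (limma adjusted p = 1.62e-07). In vehicle wells Adm rose by 0.96 ± 0.12 at 48 against 24 h, 1.94-fold, without overlap (limma adjusted p = 4.87e-07). The effect at 48 h minus that at 24 h was -0.80 ± 0.17 for 5000 µM (limma adjusted p = 9.39e-04) and -0.998 ± 0.17 for 500 µM (limma adjusted p = 6.94e-05). In the 2 differences between times, 1 of 8 genes was called for 5000 µM, where 16.4% of all tested genes were, and 2 of 8 for 500 µM, where 36.6% were.

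The 3 groups with high Adm (5000 µM at both times and vehicle at 48 h) had mean log2 β-actin ratios of 1.21 to 1.37, and the 3 groups with low Adm (vehicle at 24 h and 500 µM at both times) had ratios of 1.61 to 1.86. With the ratio as a covariate the Adm changes kept their size: 0.97 with 5000 µM at 24 h (limma adjusted p = 3.01e-06), -0.79 with 500 µM at 48 h (limma adjusted p = 0.0056) and 0.97 in vehicle over time (limma adjusted p = 1.32e-04). The difference between times for 500 µM was then -1.03 with an adjusted p of 0.0529 in limma.

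**Figure D4:**
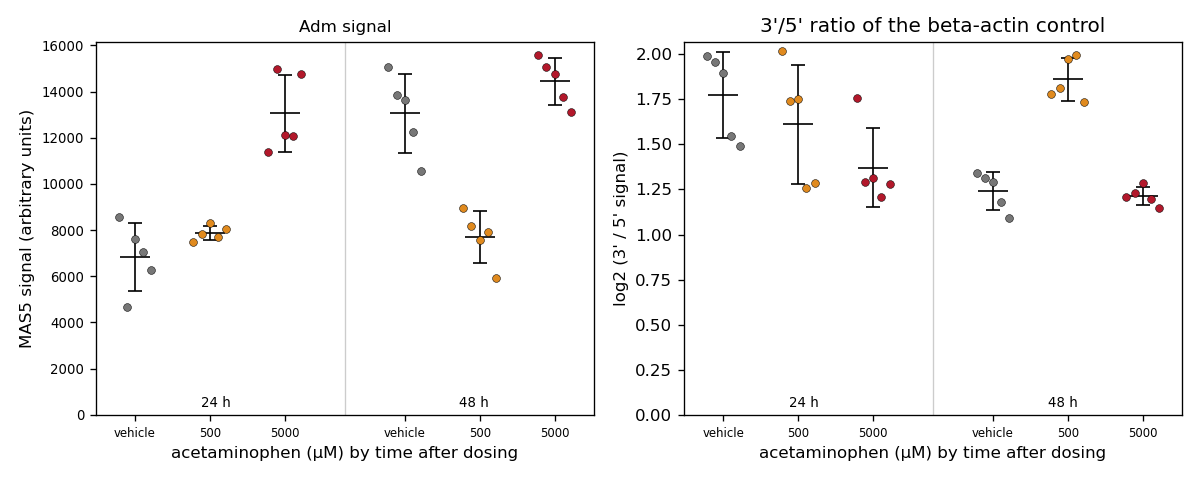
Left, MAS5 signal of Adm (linear, arbitrary units), and right, log2 3′/5′ ratio of the β-actin control signal, in vehicle, 500 µM and 5000 µM wells at 24 and 48 h, with 1 point per array and the mean and SD of 5 arrays. Adm is high in the groups whose mean ratio is 1.21 to 1.37 and low in those whose mean ratio is 1.61 to 1.86.

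A wider list of 81 further genes was read beside the set, of which 76 were on the array and 49 were tested. It held genes of the hypoxia pathway and 4 genes listed as relatives of the set (Ndrg2, Ndrg3, Ndrg4 and Ddit4l). With 5000 µM, 16 of 49 were called at 24 h (7 higher and 9 lower), beside 38.1% of all tested genes. At 48 h 14 of 49 were called (6 higher and 8 lower), beside 32.6%. No test of the list was made, and nothing is read from these counts. The median change of the list was -0.0017 at 24 h and -0.013 at 48 h, beside -0.0027 and -0.0107 for all tested genes. Median centring of the arrays made the split at 24 h 2 higher and 10 lower, beside 809 higher and 1745 lower of all tested genes. The list included genes that moved in opposite directions. Angptl4, a secreted inhibitor of lipoprotein lipase that also answers to fatty acids, rose by 1.15 ± 0.06 at 24 h and 1.06 ± 0.06 at 48 h, and Wsb1, a ubiquitin ligase adaptor, by 0.35 ± 0.10 and 0.37 ± 0.10 (limma adjusted p at most 0.00728 for all 4).

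Several genes of the wider list fell with 5000 µM. Ndufa4l2, which damps mitochondrial complex I, fell by 0.74 on the log2 scale at 24 h, and fell by 1.32 at 48 h (limma adjusted p = 2.68e-04 and 4.14e-08). Ddit4l, a relative of Ddit4 that also restrains mTORC1, fell by 0.48 and by 1.15 (limma adjusted p = 8.61e-05 and 1.30e-11). Pfkp, a phosphofructokinase of glycolysis, differed from vehicle by -0.20 at 24 h, which was not called, and fell by 1.13 at 48 h (limma adjusted p = 7.76e-06). Bhlhe40, a transcriptional repressor, fell by 0.53 at 24 h, and Ak4, a mitochondrial adenylate kinase, by 0.53 (limma adjusted p = 6.78e-06 and 2.38e-05). Ak4 at 48 h differed by 0.06, which was not called. For the effect of 5000 µM at 48 h minus that at 24 h, 8 of 49 genes were called, 4 higher and 4 lower, beside 16.4% of all tested genes. The lower ones were Pfkp (-0.94 ± 0.25, limma adjusted p = 0.0102), Ddit4l (-0.67 ± 0.13, limma adjusted p = 4.65e-04), Rora (-0.62) and Bnip3 (-0.34). The higher ones were Ak4 (0.59), Epas1 (0.33), P4hb (0.32) and Pgm1 (0.27). At 48 h Lox, a collagen cross-linking enzyme, fell by 0.83 on the log2 scale, while Ero1a, a disulfide oxidase, rose by 0.50 and Plod1, a collagen lysyl hydroxylase, by 0.35 (limma adjusted p = 8.55e-04, 0.0362 and 0.00401). Vhl, which encodes the von Hippel-Lindau protein, rose by 0.30 at 24 h and Vegfb by 0.29 (limma adjusted p = 0.00713 and 0.0342).

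With 500 µM, 1 of the 49 genes was called at 24 h, where 2.86% of all tested genes were. It was Angptl4, which rose by 0.59 ± 0.06 (limma adjusted p = 6.94e-08). At 48 h 16 were called, 9 higher and 7 lower, against 42.6% of all tested genes. With the β-actin ratio as a covariate only 3 were, beside 339 of all 8531 genes. Centring arrays on their medians gave 10 higher and 3 lower, beside 2324 higher and 432 lower of all 8531. The largest rises were those of Ero1a (0.61), Angptl4 (0.50), Ak4 (0.49) and Plod1 (0.47), and the largest falls those of Ddit4l (-0.83), Ndufa4l2 (-0.57), Lox (-0.52) and Ankrd37 (-0.39), an ankyrin repeat protein (limma adjusted p at most 0.0277 for all 8). In vehicle wells over time 13 were called, 7 higher and 6 lower, beside 32.5% of all tested genes. With the ratio as a covariate 2 were called, beside 440 of all 8531 genes. Centring gave 3 higher and 7 lower, beside 284 higher and 1746 lower of all 8531. Without these adjustments the changes in vehicle at 48 against 24 h were 0.90 for Ndufa4l2, 0.69 for Pfkp, 0.44 for Ankrd37 and 0.38 for Vegfb. They were -0.62 for Lox, -0.49 for Ak4, -0.36 for Epas1, which encodes the HIF-2 alpha subunit, and -0.25 for Mxi1, a repressor of Myc targets. The median change of the list was -0.0472 with 500 µM at 48 h and 0.0668 in vehicle over time, beside 0.0144 and -0.0083 for all tested genes.

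Wells given the same treatment for the same time still differed in these genes, and this spread played no part in the choice of the set. Each array was expressed as its log2 deviation from the mean of its group, which removes every dose and time difference, and deviations were compared over the 30 arrays for all 36 pairs of the 9 genes. Permutations of arrays within groups gave the p-values, which were adjusted over the 36 pairs, and 1e-05 was the smallest p the 100000 permutations could give. They treated the arrays of a group as exchangeable, so a deviation shared by all arrays of a run of title numbers counts towards these p-values, and no p is given for the r with the runs taken out. The within-group SD was largest for Ndrg1 (0.28) and Egln3 (0.27) and smallest for Hif1a (0.15) and Ddit4 (0.15).

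Ndrg1 and Slc2a1 deviated together most closely of the pairs with Ndrg1, with Pearson's r of 0.84 and Spearman's rho of 0.90 (permutation p = 1e-05 for both, adjusted p = 1.2e-04 and 6e-05). Leaving out the 2 arrays farthest from the Ndrg1 median left r at 0.88. Ndrg1 also followed Egln3 (r = 0.75, rho = 0.80, permutation adjusted p = 1.2e-04 and 6e-05), Vegfa (r = 0.66, rho = 0.67, permutation adjusted p = 5.85e-04 and 8e-04) and Egln1 (r = 0.61, rho = 0.67, permutation adjusted p = 0.00306 and 9.72e-04), and with Adm it gave r = 0.52 and rho = 0.51 (permutation adjusted p = 0.0099 and 0.0202). Without the 2 farthest arrays these r were 0.69 for Egln3, 0.67 for Vegfa, 0.50 for Egln1 and 0.52 for Adm. For P4ha1, Ddit4 and Hif1a the r with Ndrg1 was 0.35, 0.38 and -0.16 (permutation adjusted p = 0.0802, 0.0792 and 0.393).

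In pairs without Ndrg1, the 2 farthest arrays were those farthest from the median of the pair's first-named gene. The 2 hydroxylases, Egln1 and Egln3, had r = 0.88 and rho = 0.85 (permutation adjusted p = 1.2e-04 and 6e-05, r = 0.86 without the 2 farthest arrays), and Egln3 and Vegfa had r = 0.84 and rho = 0.83 (permutation adjusted p = 1.2e-04 and 6e-05, r = 0.82 without the 2 farthest). By Pearson's r, before and after the runs of title numbers were taken out, Egln1 and Egln3 were the closest pair, and by Spearman's rho, without the 2 farthest arrays, and after the β-actin ratio and the array median, Ndrg1 and Slc2a1 were. Hif1a ran the other way, at r = -0.59 and rho = -0.48 with Egln1 (permutation adjusted p = 0.00558 and 0.0277) and at r = -0.57 and rho = -0.55 with Vegfa (permutation adjusted p = 0.0049 and 0.0124), and without the 2 farthest arrays r was -0.59 and -0.45. Ddit4 followed Adm (r = 0.67, rho = 0.57, permutation adjusted p = 0.00306 and 0.0132, r = 0.76 without the 2 farthest arrays).

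**Figure D5:**
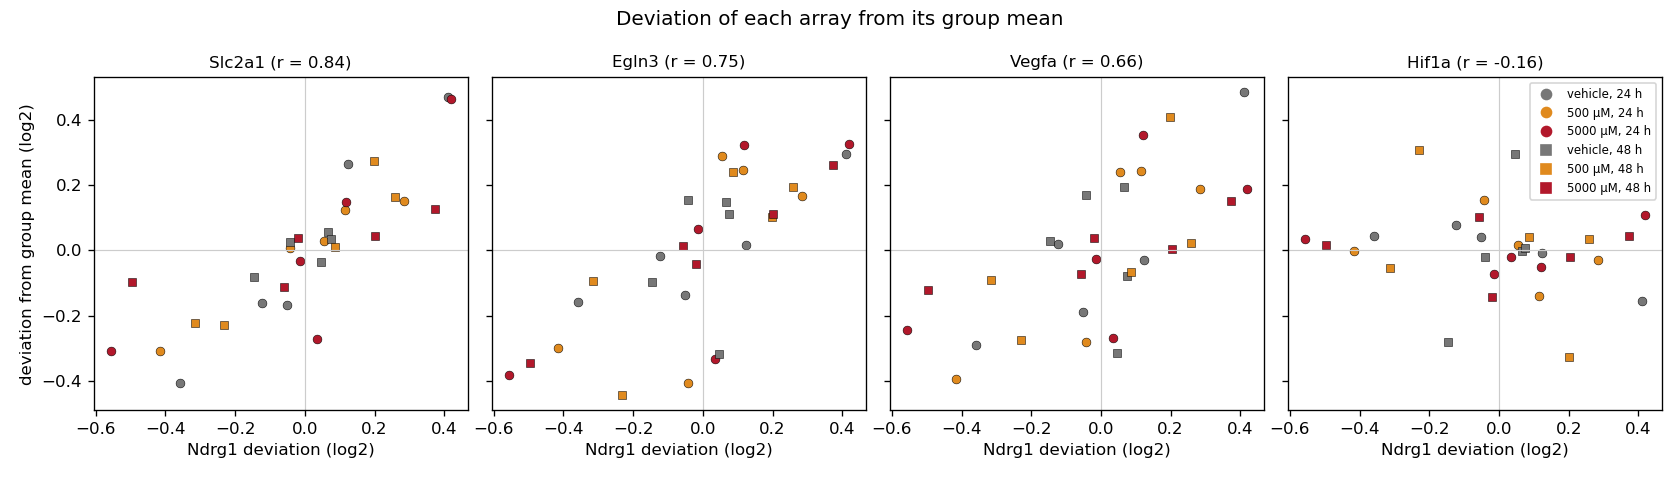
Log2 deviation of each array from its group mean for Slc2a1, Egln3, Vegfa and Hif1a (y axes) against that of Ndrg1 (x axes), with 30 arrays coloured by dose and shaped by time. Slc2a1, Egln3 and Vegfa rise with Ndrg1 (r = 0.84, 0.75 and 0.66), and Hif1a does not (r = -0.16). Vegfa is its brighter probe set only.

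The sample titles carry a running number, whose meaning is not stated, and each run of 6 numbers holds 1 array of every group. In the first run Ndrg1, Egln1, Egln3, Vegfa and Slc2a1 lay above their group means in 6 of 6 arrays, while in the fifth run Egln1 and Vegfa did so in 0 of 6 arrays and Ndrg1, Egln3 and Slc2a1 in 1 of 6. With the runs taken out as well, r was 0.74 for Ndrg1 and Slc2a1, 0.63 for Ndrg1 and Egln3, 0.41 for Ndrg1 and Vegfa, 0.39 for Ndrg1 and Egln1, 0.77 for Egln1 and Egln3 and 0.74 for Egln3 and Vegfa. With Hif1a it was -0.44 for Egln1 and -0.46 for Vegfa, and for Ddit4 and Adm 0.73. After the β-actin ratio and the array median were taken out instead, r was 0.84 for Ndrg1 and Slc2a1, 0.76 for Ndrg1 and Egln3, 0.80 for Egln1 and Egln3, -0.41 for Hif1a and Egln1 and -0.36 for Hif1a and Vegfa.

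Against all tested genes the likeness to Ndrg1 between wells was uncommon, as a description. A within-group r above 0.5 with Ndrg1 was found for 5 of the 8 other genes of the set (62.5%), for 12 of the 49 tested genes of the wider list (24.5%) and for 4.51% of the remaining tested genes, whose median r was 0.04. These shares are with the runs of title numbers left in. With the runs taken out, r stayed above 0.5 for Slc2a1 (0.74) and Egln3 (0.63), and was 0.44 for Adm, 0.41 for Vegfa and 0.39 for Egln1. The shares of the other genes were not computed in that way. The highest r of all 8530 genes was that of Pfkp (0.90), the second that of Slc2a1 and the third that of Rora, a nuclear receptor gene of the wider list (0.82). Pfkfb3, which makes the activator of phosphofructokinase, ranked 18 (0.75), Hmox1, heme oxygenase, 19 (0.75), and Egln3 21. Ndrg1 and Pfkp were thus alike between wells and both low with 5000 µM at 48 h. Rora and Hmox1 were called lower there too, by 0.55 and 0.48 (limma adjusted p = 0.00156 and 1.17e-05), and Pfkfb3, at -0.57, was not called. Wsb1 (r = 0.71) and Ero1a (r = 0.67) were called higher there. Slc2a1 and Egln3 were like Ndrg1 between wells and were not called with 5000 µM in the fit over all arrays. Slc2a1 at 48 h was called lower in the fit restricted to the 2 groups.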

How the data were processed

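Hepatocyte RNA was measured on 30 Affymetrix rat expression arrays, 5 wells in each of 6 groups taken from the sample titles and characteristics. The values are the deposited intensity of each probe set, a MAS5 signal on a linear scale per the submitters' processing notes. The scaling target is not given in the sources used here, and each array had a trimmed mean of 1500.55 to 1500.66. Microarrays have no read depth, and the number of arrays limits the precision. From these intensities log2 values were taken, without further normalization. Of 31099 probe sets, 20826 were annotated to 1 gene symbol and 436 to several, which were left out, and each of 14217 genes was read from its brightest probe set. The brighter 60% (8531 genes, dimmest average 469.2) were tested.

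One mean per group was fitted in limma 3.58.1 (R 4.3.3) with eBayes and an intensity trend (24 residual and 7.58 prior degrees of freedom), for 9 comparisons. p-values were two-sided, with Benjamini-Hochberg adjustment over all 8531 genes. Second probe sets of a gene were fitted together with all probe sets other than controls, and their adjusted p was taken over those. No result of a self-test on simulated data is given here. The 3′/5′ β-actin ratio was compared by exact permutation, and deviations from group means by 100000 permutations within groups (Python 3.11.15, SciPy 1.17.1). The members and lists were chosen with earlier results of these data known. Named are all 9 members, up to 4 called genes of the wider list per direction and comparison by largest change, and the 5 genes nearest to Ndrg1 over the 6 group means. Genes named for their likeness between wells were chosen after their values were seen, as were the comparison of deviations and the runs of 6 as a block. Promoter windows are those of RefSeq on GRCr8, and gene coordinates are from the same build. Alternatives were median centring, quantile normalization, the mean of all probe sets, no filter, log2(signal + 100), the β-actin ratio as a covariate, only the groups compared, other probe sets, and each array left out.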

Additional observations from a re-analysis of the deposited data

Results flagged for a closer look

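Of the 54 groups formed by 9 genes and 6 conditions, 3 held 1 array far from the other 4 by Dixon's criterion, where chance gives about 1 in 20. Egln1 in vehicle at 48 h had its lowest array at 3306.4, Ddit4 with 500 µM at 48 h its highest at 10499, and Ddit4 with 5000 µM at 48 h its lowest at 9555. The effect of acetaminophen differed between times in 3 cases by limma's test of the difference. For Adm with 5000 µM the effect at 48 h minus that at 24 h was -0.80 (adjusted p = 9.39e-04), for Adm with 500 µM it was -0.998 (adjusted p = 6.94e-05), and for Ddit4 with 500 µM it was -0.45 (adjusted p = 0.00727). The vehicle level enters all 3, and both Adm and Ddit4 were higher in vehicle at 48 h than at 24 h.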

How the results depend on the processing

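The titles carry no replicate number, and a paired fit was made with their running numbers as a block, in runs of 6 that each hold 1 array of every group, chosen after seeing the data. Numbers of the 8 genes called in other fits were as follows, beside the number called of all 8531 genes, or of 14217 with no filter. For fits with single arrays left out that number is not given. With 5000 µM at 48 h (2 called), 0 were called with arrays centred, beside 1867, and 1 with no filter, beside 2751. With only the groups compared 4 were called, beside 3028, and with single arrays left out 0 to 1. With 500 µM at 48 h (2), 1 was called on the mean of all probe sets, beside 3093, and 1 with the β-actin ratio as a covariate, beside 339. When centred 3 were called, beside 2756, and with the block 3, beside 3814. For 5000 against 500 µM at 48 h (1), 2 were called when centred, beside 3468, and 2 with the covariate, beside 1782. With only the groups compared 2 were called, beside 3922, and with single arrays left out 1 to 2. In vehicle over time (3), 5 were called with the block, beside 2983. For the difference between times with 500 µM (2), 1 was called when centred, beside 2104. With the covariate 0 were called, beside 3, and with the block 4, beside 3363.

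Of the wider genes, 49 in the main fit, 2 were called with 500 µM at 24 h (1) on the mean of all probe sets, beside 212 of all 8531 genes. With the block 2 were called, beside 322, and with single arrays left out 1 to 2. With the covariate 3 were called with 500 µM at 48 h (16), 12 for 5000 against 500 µM at 48 h (21), 2 in vehicle over time (13) and 0 for the difference between times with 500 µM (10). For that with 5000 µM (8), 4 were called when centred, and 4 to 9 with single arrays left out. On the mean of all probe sets 5 were called, beside 1149 of all genes. The covariate reduced all calls from 3632 to 339 with 500 µM at 48 h, from 2770 to 440 in vehicle over time and from 3126 to 3 for the difference between times with 500 µM. With it 1782 were called for 5000 against 500 µM at 48 h (4064) and 821 for the difference between times with 5000 µM (1399), where 615 were called when centred. With 500 µM at 24 h (244) 51 were called when centred and 100 with only the groups compared. The cause was not tested.

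Among values called in either fit or given without a test, signs turned for Ndrg1 and Vegfa. Ndrg1 with 5000 µM at 24 h was 0.24 on the mean of probe sets and 0.78 on the other probe set. Its 5000 against 500 µM value at 48 h was 0.41 on the other probe set, and its difference between times with 500 µM was -1.27 on the mean and -2.58 on the other. Vegfa with 500 µM at 48 h was -0.0121 with the covariate and -0.45 on the other probe set. In vehicle over time it was 0.0341 on the mean, 0.0731 with the covariate and 0.44 on the other. On the other probe set it was also 0.42 for 5000 against 500 µM at 48 h, -0.65 for the difference between times with 5000 µM and -0.82 for that with 500 µM. Values called in neither fit turned too, among them, for 5000 µM at 24 h with the covariate, Egln1 (0.10), Egln3 (0.07) and Hif1a (-0.02), and for 500 µM at 24 h Ndrg1 on the other probe set (0.36).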
